A study of Mus musculus with 12 samples.

Results

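The 10 genes described here encode peptide hormones and prohormone products (*Cck*, *Trh*, *Vgf* and *Pthlh*), receptors (*Pth1r* and *Insrr*) and calcium-binding proteins of vesicle release (*Syt1*, *Syt10*, *Syt11* and *Doc2b*). They were read by the probes whose gene name on the array equals one of these symbols, 10 of 34836 gene names, and each had 1 probe and 1 spot. The choice rested in part on the values given below. *Cck* and *Trh* were taken because their change with Dex was among the largest on the arrays, and *Doc2b*, *Syt10* and *Insrr* because they differed by genotype, so those differences are given as a description with no test.

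RNA was taken at day 4 from mouse embryonic stem (ES) cells with or without dexamethasone (Dex), and 12 one-colour arrays were hybridized, 3 in each of 4 groups. All 4 groups carried Gata6GR, a fusion of Gata6 to the human glucocorticoid receptor ligand-binding domain driven by the constitutive CAG promoter, which Dex moves into the nucleus. *Sox7* (+/−) cells were 1 targeted clone of the EB3 line in which the *Sox7* coding sequence of 1 allele was replaced, and *Sox7* (−/−) cells were obtained from that clone by selection at a high dose of puromycin, so each genotype is a single line. Cells without Dex are called ES cells, and cells with Dex are called XEN-like cells, after the extraembryonic endoderm that Gata6 induces. There were no Dex-treated cells without the transgene, so an effect of Dex itself and one of Gata6GR cannot be told apart. Medium with LIF, the cytokine that keeps ES cells undifferentiated, was used with and without Dex. The comparison across genotypes asks whether the response to Gata6 differs when *Sox7*, a transcription factor of the same endoderm, is lost.

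A level is the background-subtracted signal of a spot as percent of that array's 75th percentile, which lay between 252 and 416 intensity units, and levels are compared for 1 probe across groups, never between probes. The *Sox7* probe gave 224 ± 5.42% (SD, n = 3) in *Sox7* (+/−) ES cells and 558 ± 113% in *Sox7* (+/−) XEN-like cells, and it was not well above background on any *Sox7* (−/−) array. Of 8 ES cell markers, *Nanog* and *Sox2* stayed below the mark for a spot well above background on every XEN-like array, while the other 6 were above it on all of them. With Dex, 6 of the 8 were called lower and 1 higher in *Sox7* (+/−) cells, and 7 lower and none higher in *Sox7* (−/−) cells. The summed signal of the list was 28180 to 28978% in *Sox7* (+/−) ES cells and 5399 to 5866% in their XEN-like cells. The same sum was 54433 to 58059% and 7570 to 8270% in *Sox7* (−/−) cells. All 11 extraembryonic endoderm markers were well above background in every group, ES cells included, and 8 of 11 were called higher with Dex in *Sox7* (+/−) and 9 of 11 in *Sox7* (−/−) cells. Markers of neuroendocrine cells summed to between 65.6 and 108% on all arrays. Of 7 such markers, 4 were well above background on all *Sox7* (+/−) ES arrays and 3 on all *Sox7* (−/−) ES arrays. In XEN-like cells these counts were 1 in *Sox7* (+/−) and 2 in *Sox7* (−/−) cells. *Pax6* was not well above background on any array, and *Isl1* only in *Sox7* (−/−) XEN-like cells, at 21.7 ± 0.943%. Of 9 neuron markers, 8 were tested and none was called higher with Dex in either genotype, while 5 of 8 and 6 of 8 were called lower. Over all probes tested, 11.0% were called higher and 13.9% lower with Dex in *Sox7* (+/−) cells, and 14.6% and 14.2% in *Sox7* (−/−) cells. *Map2*, *Rbfox3* and *Stmn2* were well above background on no XEN-like array. Like *Nanog* and *Sox2*, they passed the filter only through ES cells, where they were high, so their falls were selected. For fibroblast feeder markers the sum was between 379.6 and 478% in ES cells and between 51.3 and 86.1% in XEN-like cells. The part of other cell types in the results below was not tested, and in these bulk samples fewer cells of a type and less RNA per cell cannot be told apart. The 3 *Sox7* (−/−) ES arrays and replicate 1 of *Sox7* (−/−) XEN-like cells were on slide 1 and the other 8 arrays on slide 2, so the genotypes in ES cells were never compared on 1 slide.

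Peptide hormones are made as larger precursors, cut by prohormone convertases in dense-core granules and released when calcium rises. Synaptotagmins and Doc2 proteins carry a pair of C2 domains, many of which bind calcium and phospholipid, and act with SNARE proteins when a vesicle fuses with the plasma membrane. In the early mouse embryo, PTH-related peptide (the product of *Pthlh*) and its receptor Pth1r are known for their part in the formation of parietal endoderm, 1 of the derivatives of the lineage that XEN cells stand for. The other members are better known from the gut, the hypothalamus, the pancreas and neurons.

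The array reads a transcript by a probe of 60 bases, and the starts of the 10 probes are shown because each gene is judged by that stretch alone. The first 30 bases of each follow, 5′ to 3′, in the order hormones, receptors and release proteins.
Cck: cttcagtgactcccagacctaatgttgcta
Trh: ggggtcacatcttgtatataaccctgctct
Vgf: ctctgttgtaaatacccctcacggaggaaa
Pthlh: tgggatcaaactgtctccccaggaaactgc
Pth1r: cattgagaacgaaaccataccagttactat
Insrr: cagcctctctggggaagactggagaagact
Syt1: aggggctttcctacttaagggaccaagtcc
Syt10: aggccaccgtccacaccataaaagcctcca
Syt11: tgtggaccttgttaatgcgccacacacgtg
Doc2b: cacgaaacaatttttgtaatcttgtctgac
On the mouse build mm9 of the array files, the *Cck* probe lies at chr9:121398943-121399002 on the minus strand, that of *Trh* at chr6:92192061-92192120 on the minus strand and that of *Pth1r* at chr9:110624846-110624905 on the minus strand. The *Doc2b* probe lies at chr11:75582645-75582704 and the *Syt10* probe at chr15:89612967-89613026, both on the minus strand. The *Insrr* probe lies at chr3:87619964-87620023 on the plus strand. Which exon each stretch falls in was not analysed here. No spot of these 10 probes was marked as an outlier, and none was saturated.

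Because *Cck* and *Trh* moved furthest, in opposite directions, the 250 bases before the start of each are shown, from RefSeq on build GRCm38.p6, read along the gene. Capitals mark a match. The letters searched, on both strands, were AGATAA along with AGATAG and also TGATAA along with TGATAG (forms bound by GATA factors) and TATAAA along with TATAAG (forms of the box bound by the TATA-binding protein).
Cck, chr9:121495695-121495944, minus strand: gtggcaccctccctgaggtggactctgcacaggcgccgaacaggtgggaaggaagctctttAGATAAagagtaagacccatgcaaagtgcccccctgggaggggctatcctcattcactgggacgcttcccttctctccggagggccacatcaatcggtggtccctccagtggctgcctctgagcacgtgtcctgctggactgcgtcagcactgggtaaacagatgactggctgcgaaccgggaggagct
Trh, chr6:92244651-92244900, minus strand: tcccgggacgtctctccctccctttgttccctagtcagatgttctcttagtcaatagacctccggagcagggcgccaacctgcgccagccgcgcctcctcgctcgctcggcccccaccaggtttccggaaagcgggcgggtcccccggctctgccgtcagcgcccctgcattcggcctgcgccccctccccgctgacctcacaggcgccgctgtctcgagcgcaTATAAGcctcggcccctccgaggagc
The *Cck* window held 1 GATA match, 189 bases before the start, and no TATA match. That of *Trh* held no GATA match and 1 TATA match, 26 bases before the start. Of 32851 promoters in the table, 26.5% held a GATA match and 17.02% a TATA match in the same window, so neither match is rare. Neither window held AACAAT (a form bound by SOX factors, 9.42% of promoters) or TGACGTCA (the cyclic AMP response element, 1.55%). Of the 10 genes, 7 had an entry in the table, and among their 10 windows the only other GATA matches were in the 2 windows of *Syt1*.

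**Figure D1:**
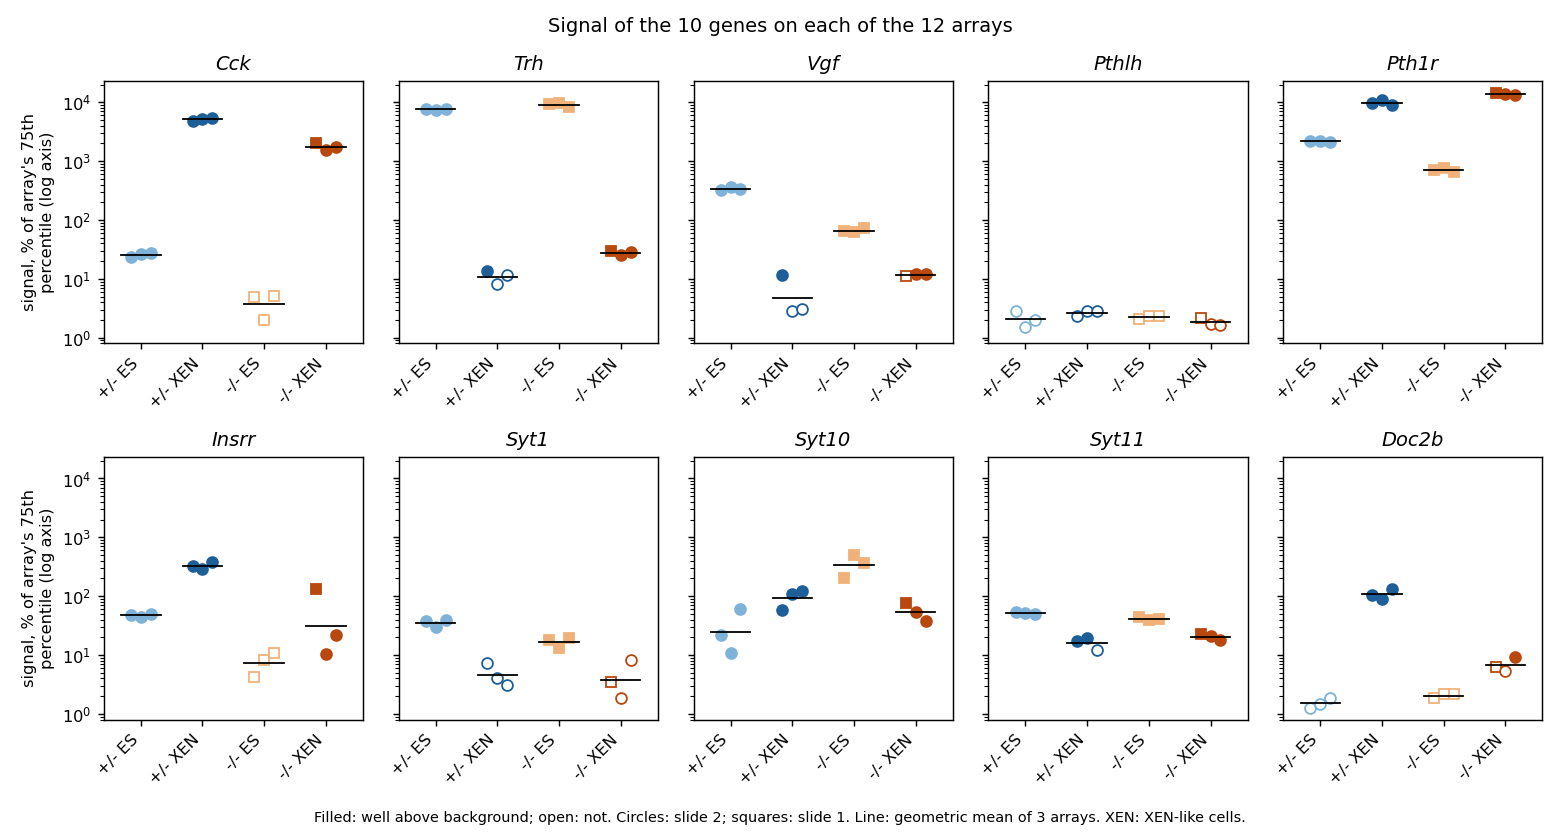
Signal of each gene on each of the 12 arrays, as percent of the array's 75th percentile on a log axis, with a line at the geometric mean of each group of 3. Open symbols are spots not well above background and squares are slide 1. *Cck* and *Trh* lie at opposite ends in ES and XEN-like cells, *Doc2b* is filled on 3 of 3 arrays for *Sox7* (+/−) with Dex alone, and *Pthlh* is open on all 12 arrays.

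Of the 10 genes, 9 were tested, since 1 or more groups had all 3 of their spots well above background. *Pthlh* was not well above background on any of the 12 arrays and has no comparison. A gene was called at an adjusted p under 0.05 (limma, Benjamini-Hochberg over 25922 probes) and a change over 2-fold. In *Sox7* (+/−) cells all 9 tested genes were called with Dex, 5 higher and 4 lower, against 24.9% of all probes tested, 11.0% higher and 13.9% lower. In *Sox7* (−/−) cells 9 of 9 were called, 4 higher and 5 lower, against 28.8% of all probes, 14.6% higher and 14.2% lower. The groups did not overlap for 8 of the 9 in either genotype, against 67.6% and 73.6% of probes. *Cck* and *Trh* were chosen on these comparisons, and *Doc2b* passed the filter through the group where it was high and so had to differ. *Syt1* and *Vgf* likewise passed only through the ES groups, where they were high. For these reasons nothing is read from these counts. The median log2 difference of the 9 was 1.92 in *Sox7* (+/−) and −1.002 in *Sox7* (−/−) cells, beside 0.16 and 0.07 over all probes.

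**Figure D2:**
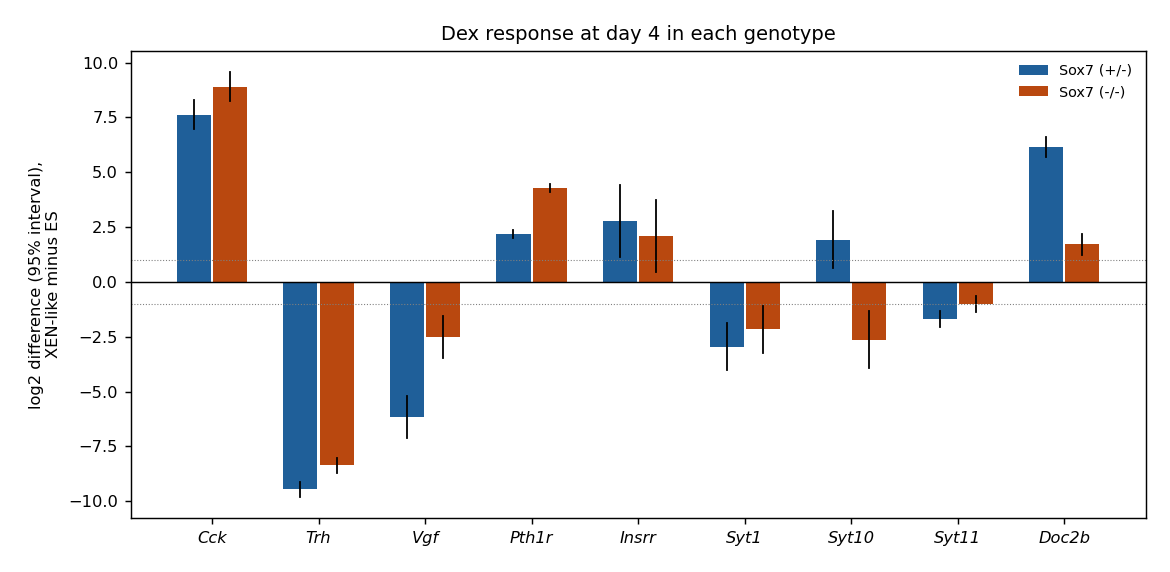
Log2 difference between XEN-like and ES cells for the 9 tested genes in each genotype, with the 95% interval of the fit as a line and 2-fold change dotted. *Cck*, *Pth1r*, *Insrr* and *Doc2b* lie above 0 and *Trh*, *Vgf*, *Syt1* and *Syt11* below 0 in both genotypes, while *Syt10* is at 1.92 in *Sox7* (+/−) and −2.63 in *Sox7* (−/−) cells. Bars of *Cck*, *Insrr*, *Syt1* and *Doc2b* that involve a group not well above background are fitted values and not measured folds. Bars of *Trh* and *Syt11* in *Sox7* (+/−) cells and of *Vgf* in both genotypes rest in part on such spots.

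*Cck* encodes cholecystokinin, a peptide of gut endocrine cells and neurons that stimulates gallbladder contraction and the release of pancreatic enzymes. Its signal was 23.6, 26.3 and 27.6% in the 3 *Sox7* (+/−) ES arrays and 4841, 5123 and 5350% in the *Sox7* (+/−) XEN-like arrays. The difference was 7.63 on the log2 scale (95% interval 6.96 to 8.29), which is 198-fold. In *Sox7* (−/−) ES cells the values were 4.87, 1.999 and 5.13%, none well above background, and with Dex they were 2059, 1546 and 1713%. The XEN-like level was thus at least 193-fold higher than the floor of the ES arrays by this processing. Over the alternatives the log2 value of this response was as low as 6.12, which is under that bound. Every XEN-like array of either genotype was far above every ES array.

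Between the genotypes, *Cck* was lower in *Sox7* (−/−) than in *Sox7* (+/−) cells both with and without Dex. In XEN-like cells the means were 1773 ± 262% and 5105 ± 255% (SD, n = 3 each), a log2 difference of −1.53 (95% interval −2.20 to −0.87). For ES cells the difference was a fall of at least 2.83-fold, and the groups did not overlap in either comparison. With slide as a block the log2 values were −1.65 in XEN-like cells and −3.15 in ES cells, and after normexp correction the ES value was −0.89, under 2-fold. No test is given, since these are the arrays that led to the choice of *Cck*. Its Dex responses differed by 1.27 on the log2 scale (95% interval 0.33 to 2.21), a fitted value that rests on *Sox7* (−/−) ES spots below background, and it was −0.67 after another background correction and 0.02 on the authors' unscaled table.

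*Trh* encodes the precursor of thyrotropin-releasing hormone, the hypothalamic tripeptide that releases thyrotropin from the pituitary. Its signal was 7653, 7446 and 7707% in *Sox7* (+/−) ES cells and 13.5, 8.23 and 11.6% in *Sox7* (+/−) XEN-like cells, where 1 of 3 arrays was well above background. Without *Sox7* the ES values were 9503, 9616 and 8199% and the XEN-like values 29.5, 25.5 and 28.1%, all well above background. The log2 differences were −9.45 (95% interval −9.79 to −9.10) in *Sox7* (+/−) and −8.36 (−8.71 to −8.01) in *Sox7* (−/−) cells. The residual signal in XEN-like cells was higher in *Sox7* (−/−) than in *Sox7* (+/−) cells, 27.7 ± 2.02% against 11.1 ± 2.69%, with a log2 difference of 1.34 (95% interval 0.997 to 1.69). Within slide 2 alone it was 1.298. It was 0.66 after another background correction and 0.89 on the authors' unscaled table, both under 2-fold. The ES cells of the genotypes differed by 0.26 (95% interval −0.09 to 0.60). As for *Cck*, no test is given.

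Receptors for both peptides were read as well. The cholecystokinin receptors *Cckar* and *Cckbr* and the TRH receptor *Trhr* were not well above background on any array. *Trhr2*, the second TRH receptor of rodents, was not well above background in ES cells of either genotype and reached 35.1 ± 11.4% in *Sox7* (+/−) and 40.0 ± 5.31% in *Sox7* (−/−) XEN-like cells. It was at least 4.95-fold higher with Dex in *Sox7* (+/−) cells (adjusted p = 2.5e-07) and at least 4.37-fold higher in *Sox7* (−/−) cells (adjusted p = 9.8e-08).

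*Vgf* encodes a secreted neuropeptide precursor that is stored in dense-core granules and was first found as a gene induced by nerve growth factor. Its values were 317, 363 and 333% in *Sox7* (+/−) ES cells, and 11.8, 2.81 and 3.12% in *Sox7* (+/−) XEN-like cells, of which only the first was well above background. In *Sox7* (−/−) cells they were 64.1, 61.6 and 72.7% without Dex and 11.3, 12.003 and 11.9% with Dex, of which 2 of 3 were well above background. The fall with Dex was −6.17 on the log2 scale in *Sox7* (+/−) (SE 0.43) and −2.49 in *Sox7* (−/−) cells (SE 0.43). No test is given for these falls, since *Vgf* passed the filter only through the ES groups, where it was high. Their size rests on XEN-like spots below background, and they were −3.67 and −1.28 after normexp background correction, both still over 2-fold. In ES cells *Vgf* was lower without *Sox7*, by −2.35 (SE 0.43, adjusted p = 0.0017), and every *Sox7* (−/−) ES array was below every *Sox7* (+/−) one. With slide as a block that difference was −2.27 (adjusted p = 0.11), which no longer passed the test. In XEN-like cells the groups overlapped and the log2 difference of 1.32 (adjusted p = 0.037) was lost in 11 of the 12 fits that left out 1 array, so no difference is read there. The responses themselves differed by 3.68 (SE 0.61). This is the difference of those falls and rests on the same spots, so it too is given with no test. It was 2.40 after normexp correction and 2.58 on the authors' unscaled table. The range was 3.31 to 4.34 when single arrays were left out, and the value was 3.62 with slide as a block.

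*Pthlh*, the ligand of Pth1r, gave between 1.53 and 2.89% on the 12 arrays, all below the mark for a spot well above background. The floor of the arrays, the lowest signal among probes well above background, lay between 5.78 and 12.2%, so a transcript under that level was not detectable. *Pth*, the other ligand of the receptor, and the related receptor *Pth2r* were likewise not well above background on any array.

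*Pth1r* encodes the receptor of parathyroid hormone and PTH-related peptide, which couples to Gs and Gq proteins. Of the 9 tested genes it had the smallest error in the fit. Its values were 2168, 2228 and 2077% in *Sox7* (+/−) ES cells and 9763, 10732 and 9101% in *Sox7* (+/−) XEN-like cells. Those of *Sox7* (−/−) cells were 709, 764 and 657% without Dex and 14374, 13601 and 13426% with Dex. No 2 of the 4 groups overlapped, and their order from low to high was *Sox7* (−/−) ES, *Sox7* (+/−) ES, *Sox7* (+/−) XEN-like and *Sox7* (−/−) XEN-like. The rise with Dex was 2.19 on the log2 scale in *Sox7* (+/−) (SE 0.08, adjusted p = 7.1e-09) and 4.28 in *Sox7* (−/−) cells (SE 0.08, adjusted p = 6.3e-11).

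The genotypes differed in *Pth1r* in both states and in opposite directions. Without Dex, *Sox7* (−/−) cells were lower by −1.61 on the log2 scale (SE 0.08, adjusted p = 4.2e-07), and with Dex they were higher by 0.49 (SE 0.08, adjusted p = 0.0016), which is under 2-fold and not called. The Dex responses differed by 2.09 (SE 0.12, 95% interval 1.83 to 2.35, adjusted p = 1.4e-06). With slide as a block this was 2.15 (adjusted p = 2.6e-05), the ES difference was −1.69 (adjusted p = 0.00019) and the XEN-like difference 0.46 (adjusted p = 0.0081). Within slide 2 alone the XEN-like difference was also 0.46, with an adjusted p of 0.085.

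Of 16 genes for proteins that couple to Pth1r or act below it, all 16 were tested. With Dex 2 rose and 3 fell in *Sox7* (+/−) cells, and 3 rose and 3 fell in *Sox7* (−/−) cells. Of all probes, 24.9% and 28.8% were called in either direction. With spike-in scaling, which sets the arrays by control transcripts added to the RNA, 1 rose and 5 fell in *Sox7* (+/−) cells. *Gnas*, which encodes the stimulatory Gs alpha subunit, rose by 1.12 (adjusted p = 2.4e-06) and 1.36 (adjusted p = 4.2e-07). *Adcy6*, an adenylyl cyclase, rose by 1.86 (adjusted p = 2.5e-07) and 2.57 (adjusted p = 1.7e-08). *Adcy3*, another adenylyl cyclase, was at least 1.296-fold lower and at least 3.01-fold lower. No test is given for *Adcy3*, which passed the filter only through the ES groups, where it was high. The scaffold gene *Slc9a3r1*, whose product binds the tail of Pth1r, was the single one of the 16 called between XEN-like cells, beside 7.49% of all probes. It was higher in *Sox7* (−/−) by 2.32 (SE 0.12, adjusted p = 9.7e-07), while spike-in scaling called 4 of the 16 higher.

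*Insrr* encodes an orphan receptor of the insulin receptor family that is known as a sensor of alkaline extracellular pH. Its signal was 47.6, 44.1 and 50.5% in *Sox7* (+/−) ES cells and 325, 285 and 380.2% in *Sox7* (+/−) XEN-like cells. In *Sox7* (−/−) ES cells it was 4.21, 8.32 and 10.8%, none well above background. The *Sox7* (−/−) XEN-like arrays stood apart from each other, with 131% on replicate 1, which was on slide 1, and 10.5 and 22.0% on replicates 2 and 3, on slide 2. Every *Sox7* (−/−) array with Dex was below every *Sox7* (+/−) array with Dex.

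For *Insrr* the log2 difference between genotypes, on which it was chosen, was −3.40 in XEN-like cells (95% interval −5.04 to −1.75), and −4.43 without the array on slide 1. In ES cells *Sox7* (−/−) lay at least 4.97-fold lower by this processing. Over the alternatives that log2 difference was as small as −1.13, which is under that bound. The Dex responses use arrays of the comparison that chose the gene and are given with no test. They were 2.79 in *Sox7* (+/−) (95% interval 1.15 to 4.43) and 2.11 in *Sox7* (−/−) cells (0.46 to 3.75), the second with overlapping groups and, against the floor, at least 3.27-fold. With slide as a block the *Sox7* (−/−) response was 4.18, and without that array it was 1.07, so its size depends on 1 array. The slide and the array cannot be told apart for it.

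The closest relatives of *Insrr* did not pass the call in any comparison. *Igf1r*, the receptor of insulin-like growth factors, gave 215 ± 2.73, 226 ± 16.3, 155 ± 24.7 and 196 ± 14.7% in the order *Sox7* (+/−) ES, *Sox7* (+/−) XEN-like, *Sox7* (−/−) ES and *Sox7* (−/−) XEN-like. *Insr*, the insulin receptor, gave group means between 19.7 and 32.05%. Its interval in the *Sox7* (−/−) Dex response was 0.16 to 1.19 on the log2 scale, which reaches past 2-fold.

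**Figure D3:**
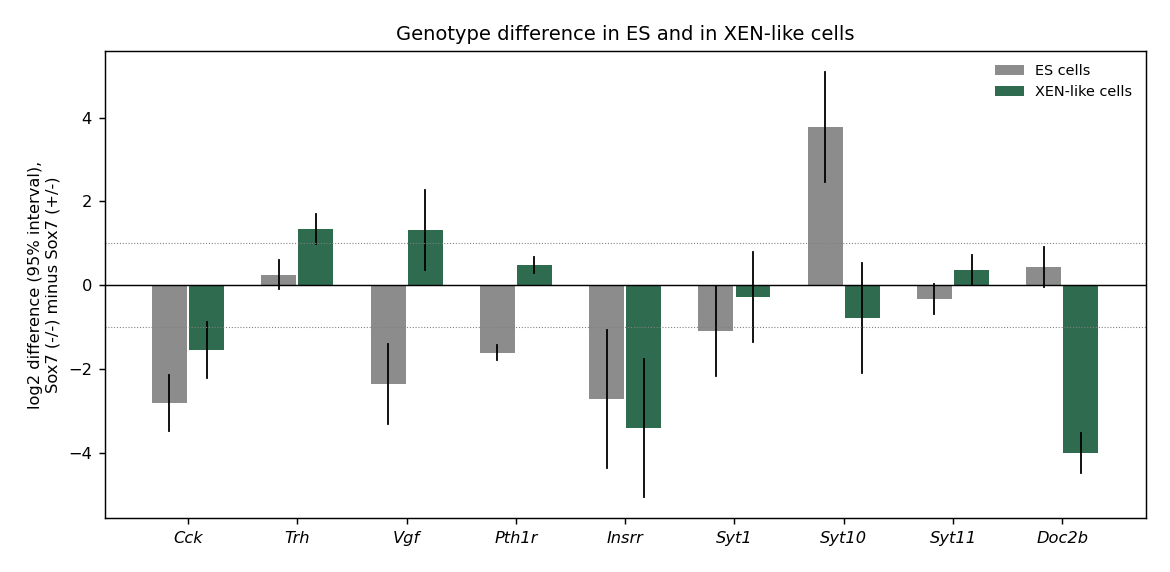
Log2 difference between *Sox7* (−/−) and *Sox7* (+/−) cells for the 9 tested genes, in ES cells and in XEN-like cells, with the 95% interval of the fit as a line and 2-fold change dotted. *Pth1r* and *Vgf* are below 0 in ES cells and above 0 in XEN-like cells, *Syt10* is at 3.78 in ES and −0.78 in XEN-like cells, and *Doc2b* is at −4.00 in XEN-like cells alone. Bars of *Cck* and *Insrr* in ES cells, of *Syt1* in XEN-like cells and of *Doc2b* in ES cells involve groups not well above background and are fitted values. Bars of *Trh*, *Vgf*, *Syt11* and *Doc2b* in XEN-like cells rest in part on such spots.

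Between genotypes, 5 of the 9 tested genes were called in XEN-like cells, 2 higher and 3 lower in *Sox7* (−/−) cells, against 7.49% of all probes (3.85% higher and 3.64% lower), and 5 of 9 in ES cells, 1 higher and 4 lower, against 8.61% (1.94% higher and 6.67% lower). The groups did not overlap for 5 genes in XEN-like cells (46.2% of probes) and for 9 in ES cells (65.2%). The Dex responses differed for 6 of 9, 4 higher and 2 lower in *Sox7* (−/−) cells, against 9.78% of probes (6.62% and 3.16%). *Doc2b*, *Syt10* and *Insrr* were chosen on these comparisons and are among the counts, so nothing is read from them.

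The vesicle release genes are led by *Doc2b*, a high-affinity calcium sensor that takes part in insulin secretion and in asynchronous and spontaneous release from neurons. Its signal was 1.27, 1.49 and 1.84% in *Sox7* (+/−) ES cells and 1.89, 2.14 and 2.14% in *Sox7* (−/−) ES cells, none well above background. With Dex, *Sox7* (+/−) cells reached 106.6, 88.6 and 132%. In *Sox7* (−/−) XEN-like cells it was 6.23, 5.32 and 9.13%, of which only the last was well above background. All 3 arrays with Dex in *Sox7* (+/−) cells were thus far above the other 9 arrays. The Dex response in *Sox7* (+/−) cells was at least 15.7-fold by this processing. Over the alternatives its log2 value was as low as 2.61, which is under that bound. The XEN-like genotype difference, on which *Doc2b* was chosen, was −4.00 on the log2 scale (95% interval −4.48 to −3.53). Within slide 2 the genotype difference was −3.95. On the authors' unscaled table, which keeps the background, it was −2.05.

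*Doc2a*, the closest relative, which is known for its role at nerve terminals, moved the other way. It gave 36.0 ± 4.83% in *Sox7* (+/−) ES and 12.1 ± 3.95% in *Sox7* (+/−) XEN-like cells, and 47.7 ± 2.86% and 14.8 ± 2.71% in *Sox7* (−/−) cells. The fall was −1.62 (SE 0.23, adjusted p = 0.00013) and −1.70 (SE 0.23, adjusted p = 7.4e-05), and the genotypes were not called apart in it.

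*Syt10* encodes a synaptotagmin known for calcium-dependent release of insulin-like growth factor 1 from neurons of the olfactory bulb. Its arrays varied widely within a group, most so among *Sox7* (+/−) ES cells. The values were 22.2, 10.75 and 59.9% in *Sox7* (+/−) ES cells and 59.3, 109.6 and 120.2% in *Sox7* (+/−) XEN-like cells, with an overlap between the groups. In *Sox7* (−/−) cells they were 199.99, 493 and 372% without Dex and 76.3, 54.1 and 37.5% with Dex, with no overlap. *Sox7* (−/−) ES cells were higher than *Sox7* (+/−) ES cells by 3.78 on the log2 scale (95% interval 2.47 to 5.08), the difference on which the gene was chosen, and 3.02 with slide as a block. In XEN-like cells the genotypes overlapped, with a log2 difference of −0.78 (−2.09 to 0.53). The Dex response was 1.92 (95% interval 0.62 to 3.23) in *Sox7* (+/−) and −2.63 (−3.94 to −1.32) in *Sox7* (−/−) cells, given with no test since they use the same ES arrays. It was 1.34 in *Sox7* (+/−) cells without replicate 2 of the ES cells, the lowest of the 3.

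*Syt1* encodes the calcium sensor of fast synchronous release at synapses. It gave 37.6, 30.2 and 38.8% in *Sox7* (+/−) ES cells and 17.8, 13.3 and 19.6% in *Sox7* (−/−) ES cells, all well above background, and between 1.85 and 8.32% in XEN-like cells, none well above background. With Dex it was at least 3.23-fold lower in *Sox7* (+/−) cells and at least 2.05-fold lower in *Sox7* (−/−) cells. No test is given for these falls, since *Syt1* passed the filter only through the ES groups, where it was high. The second fall was under 2-fold after normexp correction (−0.55 on the log2 scale) and on the unscaled table (−0.72). Although the ES groups did not overlap, the log2 difference between them of −1.08 (95% interval −2.15 to −0.01) did not pass the test in the fit to all 12 arrays (adjusted p = 0.092). It passed when only the 6 ES arrays were fitted (adjusted p = 0.0033), and with slide as a block it was −0.89 (adjusted p = 0.57).

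*Syt11*, a synaptotagmin that does not bind calcium and is known for its part in endocytosis and vesicle trafficking, changed least of the 9 with Dex. Its values were 54.0, 52.1 and 49.5% in *Sox7* (+/−) ES cells and 17.6, 19.6 and 12.03% in *Sox7* (+/−) XEN-like cells, the last not well above background. In *Sox7* (−/−) cells they were 43.6, 39.3 and 40.9% without Dex and 22.9, 20.9 and 18.2% with Dex. It fell by −1.69 (SE 0.16, adjusted p = 7.3e-06) and by −1.002 (SE 0.16, adjusted p = 0.00028), the second just past 2-fold. It was under 2-fold with slide as a block (−0.85), after normexp correction (−0.49), after quantile normalization (−0.89), on the unscaled table (−0.63) and without replicate 1 of the ES cells (−0.96) or replicate 3 of the XEN-like cells (−0.91). The responses differed by 0.69 (95% interval 0.18 to 1.19, adjusted p = 0.048), under 2-fold. Genotype differences were −0.33 in ES and 0.36 in XEN-like cells, with adjusted p of 0.12 and 0.11.

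The other synaptotagmins and C2-domain genes were read from a list of 25, of which 12 were tested. With Dex none rose and 5 fell in *Sox7* (+/−) cells, and 2 rose and 5 fell in *Sox7* (−/−) cells. The shares of all probes called in either direction were 24.9% and 28.8%. After normexp background correction none rose and 3 fell in *Sox7* (+/−) cells, and 1 rose and 2 fell in *Sox7* (−/−) cells. *Syt9*, a calcium sensor close to *Syt1*, fell at least 7.87-fold in *Sox7* (+/−) cells and by −4.17 on the log2 scale in *Sox7* (−/−) cells. No test is given for *Syt9*, which passed the filter only through the ES groups, where it was high. *Syt4* was not well above background on any array. The largest rise was that of *Syt13* in *Sox7* (−/−) cells, 4.24 (SE 0.13, adjusted p = 1.3e-09), from 25.4 ± 4.85% to 475 ± 28.7%. In *Sox7* (+/−) cells *Syt13*, an atypical synaptotagmin, went from 220.1 ± 15.7% to 323 ± 23.6% (0.55, not called). Its ES cells differed by genotype, −3.13 (adjusted p = 9.9e-08), and its responses by 3.69 (SE 0.18, adjusted p = 7.7e-07), the same directions as those of *Pth1r*.

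Of 40 tested genes of the SNARE and release machinery, 3 rose and 7 fell with Dex in *Sox7* (+/−) cells and 8 rose and 9 fell in *Sox7* (−/−) cells, beside 24.9% and 28.8% of all probes called in either direction. With spike-in scaling, 1 rose and 10 fell in *Sox7* (+/−) cells, and the list's median turned from 0.43 to −0.06. *Stxbp6*, which binds SNARE proteins, rose by 2.01 (adjusted p = 9.2e-06) and 3.18 (adjusted p = 2.2e-07). *Rab27a*, a small GTPase that tethers secretory granules, fell at least 4.21-fold and at least 8.28-fold. *Rims3*, an active zone protein gene, fell by −3.05 in *Sox7* (+/−) cells (adjusted p = 2.5e-09), and *Cplx1*, which encodes complexin 1, fell at least 4.505-fold in *Sox7* (−/−) cells. No test is given for *Rab27a* and *Cplx1*, which passed the filter only through the ES groups, where they were high. Between XEN-like cells of the genotypes 4 of 40 were lower in *Sox7* (−/−) cells and none higher, beside 7.49% of all probes called in either direction. Among them was *Rab3c* by −1.12 (adjusted p = 0.0092), but with spike-in scaling none was lower and 1 higher.

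**Figure D4:**
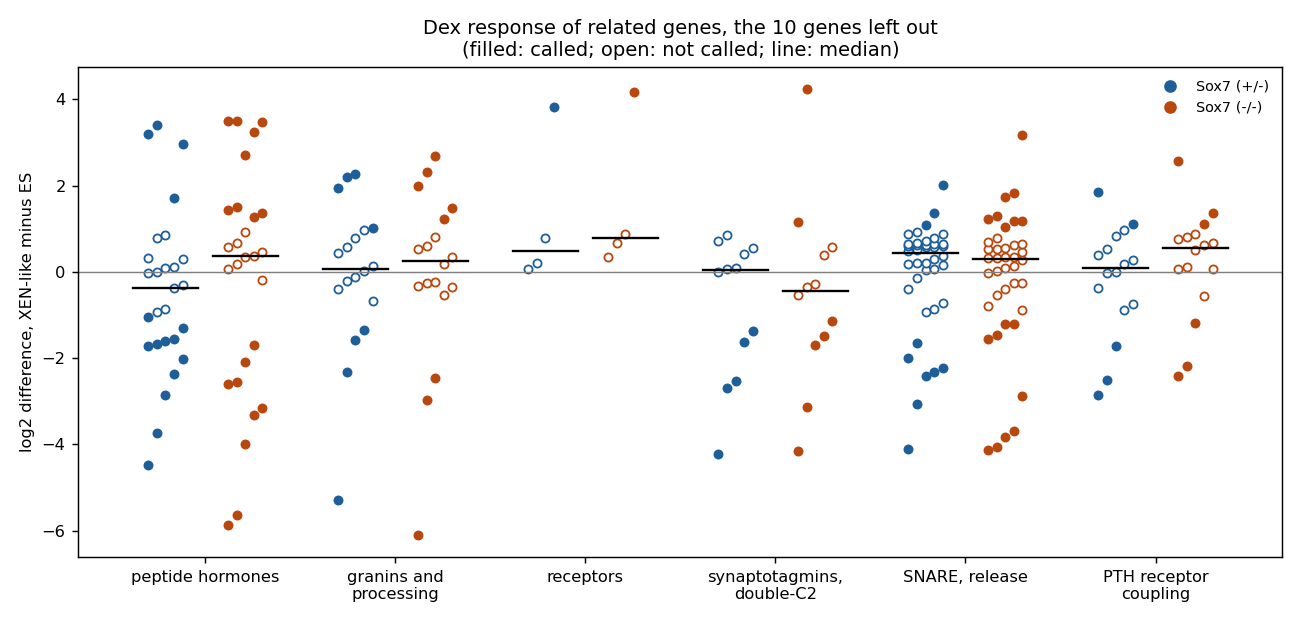
Log2 difference between XEN-like and ES cells for the tested genes of 6 related lists, the 10 genes themselves left out, in both genotypes. Filled points were called, open points were not, and lines are medians. Every list but that of receptors holds called genes in both directions in *Sox7* (−/−) cells.

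Other peptide hormones and neuropeptides were read from a list of 62, of which 27 were tested. In *Sox7* (+/−) cells 4 rose and 11 fell with Dex, and in *Sox7* (−/−) cells 9 rose and 9 fell, beside the same 24.9% and 28.8% of all probes. It was 4 and 13 in *Sox7* (+/−) cells under spike-in scaling, and after normexp correction 3 and 6 in *Sox7* (+/−) and 7 and 7 in *Sox7* (−/−) cells. *Edn2*, an endothelin, rose by 3.20 and 3.49. No test is given for *Edn2*, which passed the filter only through the XEN-like groups, where it was high. *Calca*, which encodes calcitonin and CGRP, fell by −3.75 (adjusted p = 3.9e-09) and −5.63 (adjusted p = 1.7e-10). *Nmb*, which encodes neuromedin B, rose by 3.50 in *Sox7* (−/−) cells (adjusted p = 1.7e-10). *Rln1*, a relaxin, was at least 6.08-fold lower in *Sox7* (+/−) cells (adjusted p = 4.2e-10) and *Pdyn*, the prodynorphin gene, at least 23.2-fold lower in *Sox7* (−/−) cells (adjusted p = 3.1e-07).

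Between XEN-like cells of the genotypes 4 of these 27 were higher and 5 lower in *Sox7* (−/−) cells. Of all probes, 7.49% were called there in either direction. The counts were 5 and 3 with spike-in scaling, and 4 and 1 both after normexp correction and on the authors' unscaled table. *Penk*, the proenkephalin gene, was higher by 2.57 (SE 0.09, adjusted p = 8.4e-08) and *Apln*, which encodes apelin, by 2.03 (adjusted p = 3.5e-05). *Nppb*, the B-type natriuretic peptide gene, was lower by −2.79 (SE 0.17, adjusted p = 2.9e-06), after a rise with Dex of 3.40 in *Sox7* (+/−) cells (adjusted p = 6.7e-08). *Apln* was not well above background in *Sox7* (−/−) ES cells and rose at least 5.23-fold from there with Dex (adjusted p = 1.2e-07), and *Adm*, which encodes adrenomedullin, likewise rose at least 3.42-fold (adjusted p = 5.4e-07). In ES cells 5 were higher and 7 lower in *Sox7* (−/−) cells, beside 8.61% of all probes called. The counts were 2 and 9 with spike-in scaling and 2 and 2 after normexp correction. They were 3 and 4 on the authors' unscaled table and 2 and 5 with slide as a block. *Pdyn* was higher in *Sox7* (−/−) ES cells by 1.68 (adjusted p = 0.0053) and *Adm* at least 2.37-fold lower (adjusted p = 1.2e-05).

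Granins and prohormone-processing genes numbered 18 tested of 23, with 4 higher and 4 lower in *Sox7* (+/−) and 5 higher and 3 lower in *Sox7* (−/−) cells with Dex. The shares of all probes called in either direction were 24.9% and 28.8%. *Chga*, which encodes the granule protein chromogranin A, went from 199.7 ± 9.43% to 5.30 ± 1.66% in *Sox7* (+/−) cells, where it was not well above background with Dex, a fall of at least 18.3-fold. In *Sox7* (−/−) cells it went from 289 ± 26.7% to 5.24 ± 3.63%, a log2 difference of −6.10. *Pcsk1*, the prohormone convertase of the regulated pathway, was at least 1.14-fold lower in *Sox7* (+/−) cells and at least 2.28-fold lower in *Sox7* (−/−) cells. No test is given for *Chga* and *Pcsk1*, which passed the filter only through the ES groups, where they were high. *Chgb* and *Scg2*, other granins, were not well above background on any array. *Cpn1*, which encodes the catalytic subunit of carboxypeptidase N, rose by 2.20 (adjusted p = 6.7e-08) and 2.68 (adjusted p = 1.2e-08).

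For each of the 9 tested genes, the 2 genes with the most alike pattern over the 12 arrays were found by the root mean square difference of centred log2 values among 13976 genes. *Pth1r* lay closest to *Sh3pxd2b* (0.20) and *Isx* (0.21), and *Syt11* to *Dgka* and *Phlda1* (0.13 each). The pattern of *Cck* was most like that of *Vcam1* (0.80), that of *Trh* like *Col18a1* (0.48) and that of *Vgf* like *Cldn3* (0.71). *Insrr* lay closest to *Nppb* (0.87), *Syt1* to 9530082P21Rik (0.34), *Syt10* to *Hsd3b1* (0.74) and *Doc2b* to *Serinc2* (0.68) and *Nkx2-5* (0.74). *Vcam1*, like *Cck*, was higher with Dex in both genotypes, by 6.75 and 7.43, and *Nkx2-5*, like *Doc2b*, was lower in *Sox7* (−/−) XEN-like cells, by −3.58. These are descriptions of the same arrays, and genes that differ strongly between ES and XEN-like cells share most of such a pattern.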

How the data were processed

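Total RNA of 12 samples, 3 in each group, was labelled with Cy3 and hybridized to one-colour Agilent mouse arrays. Per the labels and file headers, the authors extracted the spot intensity values with Agilent Feature Extraction 10.7.3.1. The deposited processed signal is background-subtracted within the array and not scaled between arrays. A series table was also deposited, whose intensity values lay within 0.498% of the mean spot signal and so keep the background. The processed signal was divided by the 75th percentile of each array and taken to log2 from the deposited values, outlier spots were left out (139 to 190 per array, none of the 10 genes), and spots of a probe were averaged, which gave 55681 probes. A model of group means was fitted to the 12 arrays together in limma 3.58.1 (R 4.3.3). It took the 25922 probes for which 1 or more groups had 3 of 3 arrays well above background. Intervals are 95% intervals of that fit. The deposited columns were all mapped to samples.

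A probe not well above background on any array of a group has a bound there. The fold is then the mean of the brighter group against, per array, the higher of the lowest signal among probes well above background and the dim probe's own signal. Such a bound holds for this processing alone. A list gene that passed the filter only through the groups where it was high was selected for that difference. Its adjusted p is then no support for the difference. The share of spots well above background was 41.7% to 52.3% per array. Precision is limited by having 3 arrays in a group.

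Replicates of a group correlated between 0.982 and 0.996 across probes. Arrays with the same replicate number deviated together with correlations of −0.051 to 0.126, so they were left unpaired. The labels give replicate number 1 to the source of each *Sox7* (+/−) ES array, and nothing says that replicates came from separate cultures. Then p-values measure only the spread between these samples, which may be technical.

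The 10 genes and the gene lists were chosen with earlier results of these data known. All 10 genes are named, and from each list up to 2 called genes that rose most and 2 that fell most in a comparison, of which a part is printed, with close relatives of the 10 genes, the 2 genes most alike in pattern, and *Sox7*. *Chgb*, *Scg2* and *Pth2r* are named beyond that rule, after their values were seen. A gene with several probes was read by its brightest. The procedure was also run on simulated arrays with independent noise, which had no slide effect and no background floor. That run cannot speak to those limits or to the filter on dim probes. Alternatives were another background correction, other scalings, the series table, other filters on dim probes, an intensity trend, only the arrays compared, slide or replicate number as a block, within slides, and leaving out each array in turn. Counting the *Sox7* (+/−) ES arrays as 1 sample was added after seeing the data.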

Additional observations from a re-analysis of the deposited data

Results flagged for a closer look

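The Dex response of *Vgf* differed between the genotypes by 3.68 on the log2 scale (limma, interaction term), with a fall of −6.17 in *Sox7* (+/−) and −2.49 in *Sox7* (−/−) cells. No p-value is given, since *Vgf* passed the filter only through the ES groups, where it was high. The difference was 2.40 after normexp background correction and 2.58 on the authors' unscaled table. All 6 XEN-like arrays were between 2.81 and 12.003%, near the floor, so the size of the difference rests on spots of which 3 of 6 were not well above background, while the ES groups differed by −2.35. Those ES groups lay on different slides. The part of slide in this difference was not tested within a slide, and it was 3.62 with slide as a block.

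The Dex response of *Pth1r* differed by 2.09 (adjusted p = 1.4e-06), with rises of 2.19 and 4.28. Here both states contribute, −1.61 in ES and 0.49 in XEN-like cells, and all 12 spots were well above background. Left-out arrays moved the difference between 2.04 and 2.15.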

How the results depend on the processing

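Over all alternatives and left-out arrays, 928 values of the 9 tested genes kept their direction and their side of the threshold or moved within the spread of replicates, 43 lost a call, 4 gained one, 39 moved and 4 were counted as turned in sign. That count leaves out sign changes in comparisons that chose a gene and were not called. Among these, the response difference of *Insrr*, −0.69, reached 1.385 under an alternative and 0.10 with a left-out array. The ES difference of *Doc2b*, 0.44, reached −0.12 under an alternative. With normexp background correction and quantile normalization, the count of genes called was 5 in the *Sox7* (−/−) Dex response and 3 between XEN-like cells, and the response difference of *Cck* turned to −0.67. On the series table, which keeps the background, 3 were called between XEN-like cells and *Syt1* turned to 0.093 there. A filter on all 12 arrays left 2, 2, 0, 2 and 2 genes called in the 5 comparisons, since it removes genes dim in any group. Fitting only the arrays compared left 3 between XEN-like cells, and slide as a block left 3 between ES cells. Without single arrays the counts ranged from 8 to 9, 7 to 9, 4 to 5, 4 to 6 and 4 to 6. *Syt1* between XEN-like cells, where it is below background, ranged from −0.85 to 0.23 without single arrays, with 0.07 without replicate 1 of *Sox7* (+/−) and 0.23 without replicate 2 of *Sox7* (−/−) cells. Where no construction is named, the cause was not tested.

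The replicate block gave 9, 9, 5, 5 and 6 genes called, the same counts as without it. Counting the *Sox7* (+/−) ES arrays as 1 sample left the Dex response of *Insrr* in *Sox7* (+/−) cells at 2.79, no longer called, and the *Vgf* difference between XEN-like cells also lost its call. Over all probes, spike-in scaling by 7 probes moved the share of higher calls in the *Sox7* (+/−) Dex response from 44.1% to 18.7%, between XEN-like cells from 51.4% to 75.5%, between ES cells from 22.6% to 11.1% and in the response difference from 67.7% to 90.6%, and the median of all probes in the *Sox7* (+/−) Dex response from 0.16 to −0.33. The series table gave 19.6%, 89.9%, 24.4% and 89.5%. Normexp called 3591 probes against 6463 in the *Sox7* (+/−) Dex response. The alternative of further probes per gene could not be run, since each gene has 1 probe. Signals below about 12.2% of the 75th percentile cannot be ranked.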
